A study of Mus musculus with 2 samples.

Results

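The genes described here are 10 immediate-early genes, Egr1, Egr2, Egr3, Nr4a1, Nr4a2, Ier2, Ier3, Dusp1, Zfp36 and Btg2, out of 39695 gene entries measured by RNA-seq in whole testes of 9-day-old (P9) mice. They were picked by symbol with their values in these libraries already known, so every value below is a description and none was tested. A single control library was compared with 1 library from Bcas2F/-;Vasa-Cre testes. Control males were Bcas2F/- without the transgene, so both groups had 1 deleted and 1 floxed allele of Bcas2, and only the Bcas2F/-;Vasa-Cre males lost the floxed allele, in germ cells, where Vasa-Cre is active. Bcas2 encodes a component of the Prp19 splicing complex. The sample labels name the strain C57BL/6, whereas the methods of the study describe a mixed background, and how many mice went into a library is not given in the sources used here. With 1 library per genotype, a difference between genotypes cannot be told apart from a difference between the 2 libraries.

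Immediate-early genes are transcribed within minutes of a stimulus, without new protein synthesis, because the factors that switch them on (SRF with its ternary complex partners, and CREB) are already present and need only be phosphorylated by MAP kinases and related kinases. Their mRNAs are usually short-lived, and many encode transcription factors or feedback inhibitors that end the response. In the testis they are known to respond to hormones and growth factors.

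Of the 10 genes, 3 were lower in the Bcas2F/-;Vasa-Cre library by more than 1.5-fold, namely Zfp36, Dusp1 and Ier3, and none was higher by that much. Zfp36 and Dusp1 encode feedback inhibitors, 1 acting on mRNA and 1 on MAP kinases. Egr1 and Ier2 were lower by less, Egr2 was higher by less, and Nr4a1, Nr4a2, Btg2 and the barely detected Egr3 had counting intervals that included equal levels. The levels are RPKM, reads scaled to the length of the gene and to the size of the library. The ratios are log2 ratios of RPKM + 1, Bcas2F/-;Vasa-Cre over control, and folds were counted over the 14831 genes whose mean RPKM was 1 or more. Among these genes, 1.69% were lower by more than 1.5-fold and 1.57% were higher. Since the genes were chosen with this contrast in view, their 3 of 9 above the minimum is not read against that share.

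The genes are compact. In GENCODE M21 (GRCm38, the assembly also called mm10), 70.0% of them had 2 exons or fewer in their main transcript, against 6.79% of the 13010 protein-coding genes compared. The median genomic span was 5287 bases against 24799. Ier2 (chr8:84661331-84662852, minus strand) had a single exon and no intron. Ier3 (chr17:35821684-35822923, plus strand), Zfp36 (chr7:28376784-28380253, minus strand), Btg2 (chr1:134075170-134079120, minus strand), Egr1, Egr2 (chr10:67535475-67542188, plus strand) and Egr3 (chr14:70077203-70082614, plus strand) had 2 exons each. The exceptions were Dusp1 (chr17:26505590-26562128, minus strand) with 4 exons, and Nr4a1 (chr15:101254269-101274795, plus strand) and Nr4a2 (chr2:57106830-57124003, minus strand) with 8 each. Spans and coordinates cover all annotated transcripts of a gene, and the main transcript of Dusp1 starts at 26508519, well inside its interval. Dusp1 shared 11 exonic bases with Ergic1 on the opposite strand and Zfp36 shared 125 with an antisense gene, Gm44710, and whether counting used strand is not given in the sources used here.

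Promoters are shown for the 3 genes that were lower by more than 1.5-fold and for Egr2, the gene with the highest ratio, because the regulatory motifs known for this class of genes sit close to the start of transcription. Each sequence is the 250 bases before the RefSeq start (GRCm38.p6), read 5′ to 3′ on the gene's strand, with the CArG box (the SRF site), the CRE (the CREB site, TGACGTCA) and its core TGACG, the NBRE (the NR4A site, AAAGGTCA), the EGR sites GCGTGGGCG and GCGGGGGCG, and the TATA box TATAAA in capitals on either strand. The windows are chr17:26508473-26508722 for Dusp1, chr7:28379229-28379478 for Zfp36, chr17:35821463-35821712 for Ier3 and chr10:67537619-67537868 for Egr2.
Dusp1: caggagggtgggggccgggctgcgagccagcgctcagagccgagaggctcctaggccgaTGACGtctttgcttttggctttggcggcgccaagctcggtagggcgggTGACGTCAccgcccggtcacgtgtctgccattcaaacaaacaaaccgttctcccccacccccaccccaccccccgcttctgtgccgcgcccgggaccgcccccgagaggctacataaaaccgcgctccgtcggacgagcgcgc
Zfp36: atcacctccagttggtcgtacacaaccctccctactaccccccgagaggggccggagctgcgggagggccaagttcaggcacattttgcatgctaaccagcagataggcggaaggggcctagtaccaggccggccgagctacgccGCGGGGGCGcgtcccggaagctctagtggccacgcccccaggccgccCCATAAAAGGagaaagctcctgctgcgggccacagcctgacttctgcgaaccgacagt
Ier3: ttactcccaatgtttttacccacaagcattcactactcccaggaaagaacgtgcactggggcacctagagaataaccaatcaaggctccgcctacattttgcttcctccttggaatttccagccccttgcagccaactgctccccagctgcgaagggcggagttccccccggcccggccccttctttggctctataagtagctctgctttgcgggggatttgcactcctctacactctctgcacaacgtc
Egr2: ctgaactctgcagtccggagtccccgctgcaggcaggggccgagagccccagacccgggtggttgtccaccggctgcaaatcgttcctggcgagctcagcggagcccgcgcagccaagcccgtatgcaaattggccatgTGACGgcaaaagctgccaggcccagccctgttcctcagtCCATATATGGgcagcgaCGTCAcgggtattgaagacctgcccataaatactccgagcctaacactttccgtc

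Windows of this kind were at hand for 7 of the 10 genes, those of Egr2, Nr4a1, Nr4a2, Ier3, Dusp1, Zfp36 and Btg2. A CArG box was found in Egr2, 72 to 63 bases before the start, and in Zfp36, 58 to 49 bases before it, and 1.40% of 27025 mouse promoter windows hold such a box. The full CRE was found in Dusp1, 143 to 136 bases before the start, and in Btg2, 166 to 159 bases before it (1.62% of all windows). The core TGACG, which every full CRE contains on both strands, was in 5 of the 7 windows, those of Egr2, Nr4a1, Nr4a2, Dusp1 and Btg2 (17.9%). The EGR site GCGGGGGCG was in Nr4a1 and Zfp36 (2.56%), and TATAAA was in Nr4a2 (13.0%). The NBRE (1.31%) and GCGTGGGCG (0.540%) matched no window of the 7. The Sp1 motif GGGCGG, left in lower case above, was in 6 of the 7, all but Egr2 (32.9%), and in Nr4a1 it overlapped the EGR match. Ier3, whose ratio was close to that of Dusp1, held only the Sp1 motif. The promoters of the 3 genes that were lower therefore shared no motif of this search other than GGGCGG. The RefSeq start lay 12577, 8965 and 1025 bases from the start of the GENCODE main transcript in Nr4a1, Nr4a2 and Zfp36, so these 3 windows lie at another start than that of the main transcript. A match is a description of letters and not a binding site.

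The Egr genes encode zinc finger transcription factors. Egr1 measured 17.7 RPKM in control and 14.9 in Bcas2F/-;Vasa-Cre testes, from 1329 and 1084 recovered reads. Reads were recovered from the RPKM values themselves, and they gave the 95% Clopper-Pearson intervals quoted here, which are on the log2 RPKM ratio without a pseudocount and cover counting error only. The log2 ratio of Egr1 was −0.24, with an interval of −0.37 to −0.13, and 11.2% of all genes compared were as low or lower. Egr2, which patterns the hindbrain and drives myelination, measured 5.58 RPKM in control and 7.57 in Bcas2F/-;Vasa-Cre testes (174 and 229 reads). It thus went the other way from Egr1, at a log2 ratio of 0.38 and an interval of 0.15 to 0.73, and 4.01% of all genes were as high or higher. Egr3 measured 0.390 and 0.219 RPKM, on as few as 11 and 6 reads, and did not reach the minimum level. Its interval, −2.55 to 0.73, held both a severe loss and a gain, so no difference was detectable at this depth. Egr4, the remaining gene of the family, measured 12.3 and 11.0 RPKM and had a log2 ratio of −0.15. Its interval was −0.35 to 0.02 on at least 525 and 454 reads. The 4 Egr genes therefore showed no common direction.

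The Nr4a genes encode orphan nuclear receptors, of which NR4A1 is known to activate steroidogenic genes in Leydig cells. Nr4a1 measured 18.1 RPKM in control and 18.8 in Bcas2F/-;Vasa-Cre testes (at least 445 and 450 reads). Its log2 ratio was 0.06, and the interval, −0.13 to 0.25, stayed within 1.5-fold in both directions. Nr4a2, known for its part in dopamine neurons, measured 1.42 and 1.17 RPKM (65 and 52 reads), and its log2 ratio of −0.16 had a wide interval of −0.83 to 0.27. Nr4a3 measured 0.820 and 0.335 RPKM (53 and 21 reads), below the minimum. On the ratio without a pseudocount, the Nr4a3 interval was −2.10 to −0.54, below equal levels.

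**Figure D1:**
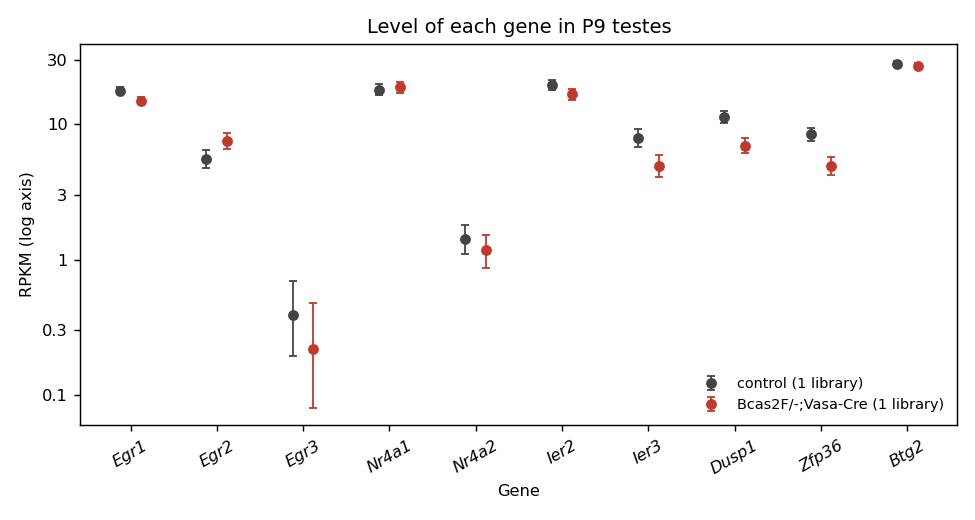
Level of each gene in RPKM (log axis) in the control library (grey) and the Bcas2F/-;Vasa-Cre library (red), with 95% exact Poisson intervals of the recovered reads as bars. The control and Bcas2F/-;Vasa-Cre bars are clear of each other in Ier3, Dusp1 and Zfp36, at 7.95 and 4.94, 11.3 and 6.97, and 8.46 and 4.94 RPKM. They are also clear in Egr1, at 17.7 and 14.9, and, in the upward direction, in Egr2, at 5.58 and 7.57. Those of Ier2, Nr4a1, Nr4a2, Btg2 and Egr3 overlap.

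Ier2 and Ier3 are grouped by their response rather than by sequence. Ier2, a nuclear protein linked to transcription and cell migration, measured 19.6 RPKM in control and 16.7 in Bcas2F/-;Vasa-Cre testes (593 and 490 reads). Its log2 ratio was −0.22 with an interval of −0.41 to −0.06. Ier3, a regulator of cell survival and of ERK signalling, measured 7.95 RPKM in control and 4.94 in Bcas2F/-;Vasa-Cre testes (179 and 108 reads). The control level of Ier3 was 1.61-fold the other, the log2 ratio −0.59, the interval −1.04 to −0.33, and 1.62% of all genes were as low or lower. Of their relatives by name, Ier5 measured 9.13 and 8.31 RPKM (log2 ratio −0.12) and Ier5l 8.44 and 6.53 (−0.33). The interval of Ier5l, −0.64 to −0.10, was below equal levels and that of Ier5, −0.36 to 0.09, was not.

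Dusp1 encodes a nuclear phosphatase that switches off the p38 and JNK MAP kinases. It measured 11.3 RPKM in control and 6.97 in Bcas2F/-;Vasa-Cre testes, from 385 and 231 reads. Its control level was 1.62-fold the other, the log2 ratio −0.62, the interval −0.94 to −0.45, and 1.39% of all genes were as low or lower. Of the 10 other Dusp genes listed, all at or above the minimum level, Dusp14 alone was lower by more than 1.5-fold, with 8.01 RPKM in control and 4.50 in Bcas2F/-;Vasa-Cre testes (200 and 109 reads, log2 ratio −0.71, interval −1.18 to −0.49). Dusp9, an X-linked ERK phosphatase, measured 18.8 and 13.7 RPKM and had a log2 ratio of −0.43. Dusp5 and Dusp7, which also act on ERK, had ratios of −0.28 and −0.24, with intervals below equal levels. Dusp6, a cytoplasmic ERK phosphatase that is itself a readout of ERK activity in many tissues, measured 19.6 and 20.5 RPKM and had a ratio of 0.06 with an interval of −0.06 to 0.19. Dusp16 was higher, with 29.9 and 33.0 RPKM and a ratio of 0.14. The intervals of Dusp2, Dusp4, Dusp8 and Dusp10 included equal levels, with ratios of −0.03, 0.11, −0.12 and −0.23.

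Zfp36 encodes tristetraprolin, which binds AU-rich elements and brings deadenylases to the mRNA. It measured 8.46 RPKM in control and 4.94 in Bcas2F/-;Vasa-Cre testes (at least 302 and 171 reads). This was the lowest ratio of the 9 genes above the minimum, with a control level 1.71-fold the other, a log2 ratio of −0.67 and an interval of −1.06 to −0.50, and 1.17% of all genes were as low or lower. The paralogs, which bind the same elements, lay nearer to equal levels. Zfp36l1 measured 11.9 and 10.5 RPKM (−0.17, interval −0.36 to −0.01), and Zfp36l2, the most abundant of the family, measured 40.4 and 43.0 RPKM (0.09, interval 0.02 to 0.17). Zfp36l3, known from placenta, was listed at 0 in both libraries.

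Btg2 belongs to the BTG and TOB family of antiproliferative proteins, which also recruit deadenylases. It was the most abundant of the 10 genes, with 27.8 RPKM in control and 27.1 in Bcas2F/-;Vasa-Cre testes (1518 and 1437 reads). Its log2 ratio was −0.03 and its interval, −0.14 to 0.07, was the narrowest of the 10. Btg3, the most abundant member of the family, measured 60.4 and 46.8 RPKM (−0.36, interval −0.50 to −0.24). Tob1 went the other way, with 15.9 and 19.4 RPKM (0.27, interval 0.14 to 0.43). Btg1 and Tob2 had ratios of −0.06 and 0.12 with intervals that included equal levels, and Btg4, an oocyte gene, was at 0.0766 RPKM in control and listed at 0 in the other library.

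**Figure D2:**
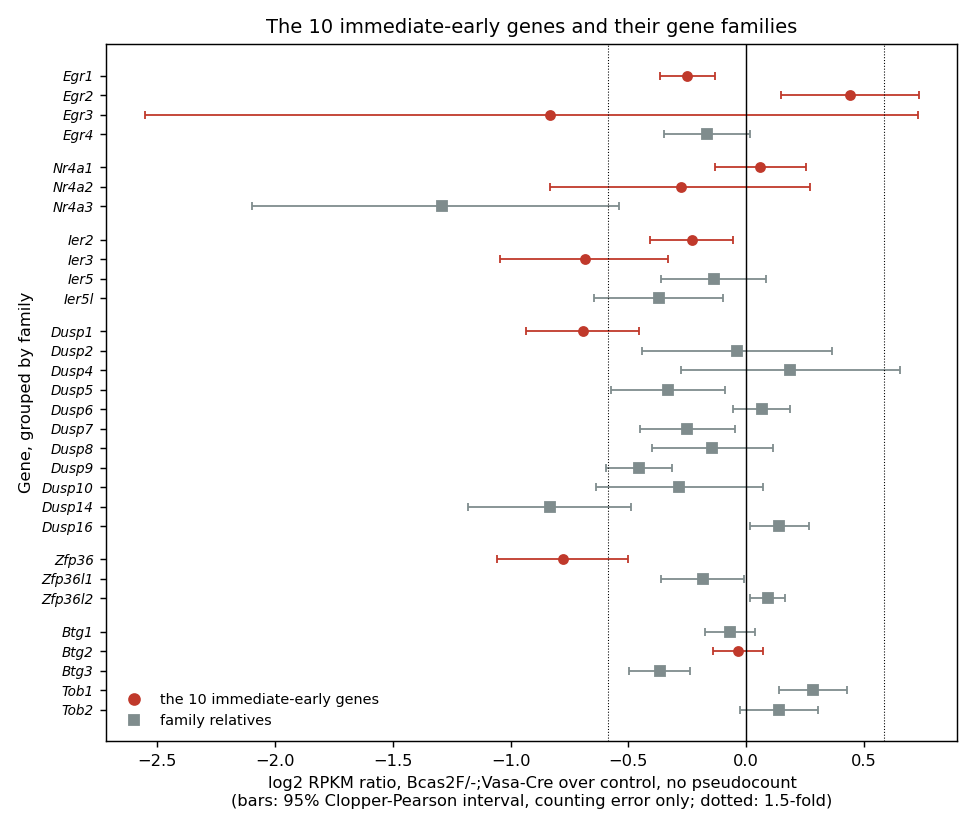
Log2 RPKM ratio without a pseudocount, Bcas2F/-;Vasa-Cre over control, for the 10 genes (red circles) and their family relatives with reads in both libraries (grey squares), with 95% Clopper-Pearson intervals as bars. Dusp1, Zfp36 and Ier3 lie left of the left 1.5-fold line, as do Egr3, Nr4a3 and Dusp14, the other relatives lie between the lines, and the bar of Egr3 runs from −2.55 to 0.73.

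Ordered by level per length, the control library had Btg2 first, then Ier2, Nr4a1 and Egr1, whose neighbouring exact Poisson intervals overlapped, then Dusp1. Zfp36 and Ier3 followed with overlapping intervals, and then Egr2, Nr4a2 and Egr3, each apart from the next. The intervals do not cover the gene length behind the RPKM, on which the order between genes also depends. For Egr2 that length was 1565 bases, against 2965 in its main transcript. From the highest level down, in the Bcas2F/-;Vasa-Cre library Egr2 stood at place 5 instead of 8, with an interval of 6.62 to 8.62 RPKM that overlapped that of Dusp1 (6.10 to 7.93). Egr2 was thus below Dusp1, Zfp36 and Ier3 in the control library, and above Zfp36 and Ier3 in the other. Btg2, at a mean of 27.4 RPKM, stood above 67.8% of the genes compared, and Nr4a2 above 4.73%, so apart from Egr3 the genes covered low to upper-middle expression levels. The RPKM of the 10 genes summed to 118 in control and 103 in Bcas2F/-;Vasa-Cre testes.

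The 9 genes above the minimum had a median log2 ratio of −0.22, with 7 below 0 and 2 above, whereas all genes compared had a median of 0.02 and 46.3% below 0. Intervals were below equal levels for 5 genes (Egr1, Ier2, Ier3, Dusp1 and Zfp36), against 16.7% of all genes, and above for Egr2, against 18.1%. All 3 genes past 1.5-fold had such an interval, as 1.25% of all genes did, and 0.647% of all genes were higher by 1.5-fold with an interval above equal levels, none of the 9 among them. The intervals of Zfp36, Dusp1 and Ier3, with upper ends of −0.50, −0.45 and −0.33, also included differences smaller than 1.5-fold. None of the 9 passed 2-fold, which 0.378% of all genes did downward and 0.425% upward. At a mean RPKM of 5 to 30, where 8 of the 10 genes lay, the central 95% of 6236 genes spanned log2 ratios of −0.45 to 0.37. Zfp36, Dusp1, Ier3 and, at the upper end, Egr2 were outside this range, and Egr1, Ier2, Nr4a1 and Btg2 were inside it. Nr4a2 was inside the wider range of −0.68 to 0.80 found at 1 to 5 RPKM.

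**Figure D3:**
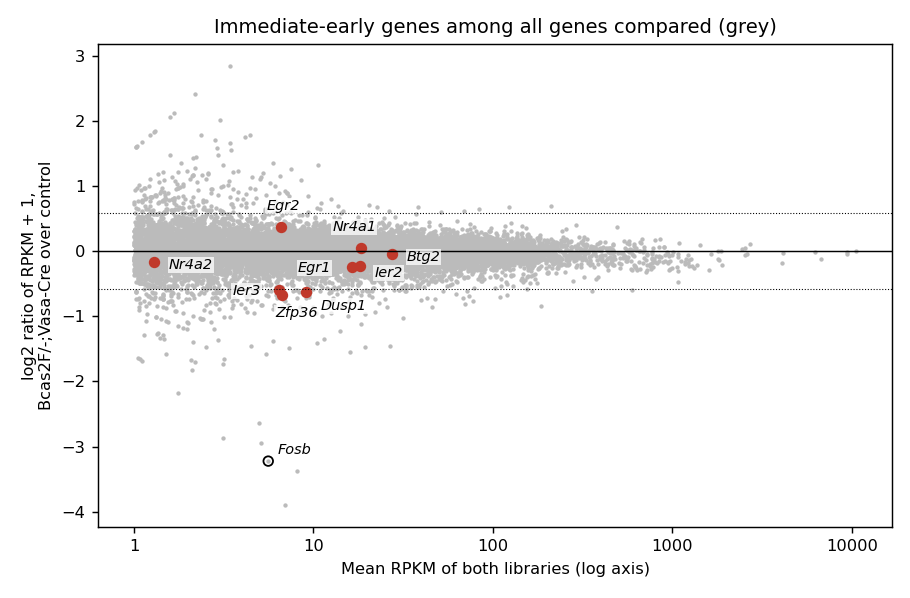
Log2 ratio of RPKM + 1, Bcas2F/-;Vasa-Cre over control, against the mean RPKM of both libraries (log axis) for the 14831 genes compared, with the 9 immediate-early genes above the minimum in red and Fosb circled. Ier3, Dusp1 and Zfp36, at −0.59 to −0.67, sit on or just past the dotted 1.5-fold line at the lower edge of the dense grey band, and Fosb lies far below them at −3.22.

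Other early-response genes were read from lists that the rule for the 10 genes did not use, though these lists too were drawn up with earlier results of the data known. Of the 7 Fos and Jun genes of AP-1, 2 were lower by more than 1.5-fold, as were 1.69% of all genes compared. Fosb measured 10.9 RPKM in control and 0.276 in Bcas2F/-;Vasa-Cre testes (at least 816 and 20 reads, log2 ratio −3.22), so it reached the minimum through the control library alone. Fos measured 11.8 and 7.34 (−0.62). Fos thus had nearly the ratio of Dusp1, while the other 5 lay between −0.20 (Jund) and 0.13 (Junb), and the AP-1 median was −0.06. Of the 22 family relatives, 19 reached the minimum and had a median of −0.12, with 1 lower by more than 1.5-fold, Dusp14, and none higher.

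A further list of 34 early genes included 32 above the minimum, with a median log2 ratio of −0.15 and 23 of 32 below 0. Of the 32, 4 were lower by more than 1.5-fold and none was higher, against 1.69% and 1.57% of all genes compared. Atf3, a stress-induced repressor of transcription, measured 15.7 RPKM in control and 8.48 in Bcas2F/-;Vasa-Cre testes (390 and 205 reads at least, log2 ratio −0.81). Sgk1, a kinase induced by glucocorticoids and serum, measured 20.0 and 11.4 (−0.76). Socs3, the feedback inhibitor of STAT3 signalling, measured 15.2 and 9.35 (−0.64), and Maff, a small MAF factor, 3.95 and 2.26 (−0.60). Intervals were below equal levels for 16 of the 32 and above for 4, against 16.7% and 18.1% of all genes. As the list was drawn up with earlier results known, its counts are not read against these shares. Mcl1, the most abundant of the list, measured 133 and 128 RPKM (−0.06).

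The machinery upstream was nearer to equal levels. Of 19 genes for SRF, its partners, CREB factors and the ERK pathway, none passed 1.5-fold. Their median was −0.01 (log2 ratio), and the range ran from −0.28 (Rps6ka1) to 0.31 (Rps6ka2), which both encode kinases activated by ERK. Srf measured 23.5 and 21.4 RPKM, with an interval of −0.32 to 0.05, and Creb1 13.4 and 15.9, with an interval of 0.10 to 0.40. RNA levels do not show the phosphorylation by which these proteins act. Of 9 genes for proteins that the products of the 10 genes bind or act on, 8 reached the minimum and none passed 1.5-fold, with a median of 0.01, 4 below 0 and 4 above. Among those above 0, Nab1, a corepressor of EGR proteins, measured 69.0 and 81.1 RPKM (0.23), Mapk14, which encodes the DUSP1 substrate p38, 41.1 and 44.7 (0.12), and Cnot7, the deadenylase that BTG2 binds, 124 and 136 (0.14). Below 0 were Mapk8, which encodes a JNK (−0.04), Cnot1 (−0.09), Rxra (−0.06) and Rxrb (−0.08). None of 6 heat shock genes, another class raised by stress, passed 1.5-fold (median −0.03), and the most abundant, Hspa8, measured 1239 and 1195 RPKM (−0.05).

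**Figure D4:**
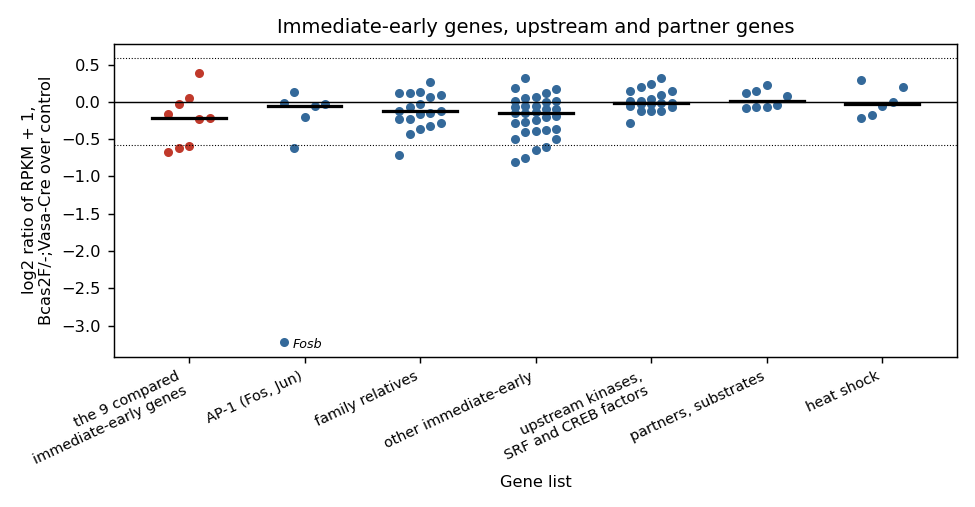
Log2 ratio of RPKM + 1, Bcas2F/-;Vasa-Cre over control, for each gene above the minimum in the 9 immediate-early genes (red) and in 6 other lists (blue), with the median of each list as a bar and 1.5-fold as dotted lines. The medians of the early-response lists lie between −0.22 and −0.06 and those of the upstream, partner and heat shock lists between −0.03 and 0.01, with Fosb alone far below the rest.

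Short-lived early mRNAs often carry AU-rich elements after the stop codon, to which tristetraprolin, the product of Zfp36, binds. In the part of the main GENCODE transcript after the stop codon, the core ATTTA was found in 9 of the 10 genes, and in 65.6% of 12730 protein-coding genes compared. At least 3 copies were found in 8 of the 10, against 34.1%. The longer TATTTAT was in 5 of the 10, with 4 copies in Ier3, 3 in Dusp1, 3 in Zfp36, and 1 each in Nr4a2 and Btg2, against 27.2% of genes. The nonamer TTATTTATT was in 2 of the 10, Dusp1 and Zfp36, against 7.02%. A copy in each is shown in capitals with its flanks, starting 103 bases after the stop codon in Dusp1 and 589 in Zfp36, since these are the longest forms of the element found in the genes that were lower.
Dusp1: agctggtccTTATTTATTtaacacccc
Zfp36: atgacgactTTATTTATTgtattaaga

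The 3 genes with 3 or more copies of TATTTAT were also the 3 that were lower by more than 1.5-fold, a coincidence noticed after the values were seen and given with no test. Over the other protein-coding genes compared, leaving out the genes described here, the 408 with 3 or more copies had a median log2 ratio of 0.08, the 3049 with 1 to 2 had 0.04 and the 9264 with none had −0.01. Of the 408 genes, 1 (0.245%) was lower by more than 1.5-fold, against 1.34% of those with none. These classes also differ in length after the stop codon, with medians of 3292 bases for the 408 genes and 691 for those with none. Ier3, Dusp1 and Zfp36 have 613, 690 and 774 bases there, and copy number was not separated from length. In the AP-1, family and other early lists together, none of 8 genes with 3 or more copies was lower by that much (median −0.16), whereas 7 of the 50 with fewer were (median −0.14).

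The libraries were checked for the targeted gene and for cell types. Bcas2 measured 39.5 RPKM in control and 25.7 in Bcas2F/-;Vasa-Cre testes (1410 and 888 reads). The log2 ratio was −0.60 and its interval −0.75 to −0.50. Germ cell markers were present in both libraries and 8 of 9 were below 0, with a median of −0.37, 1 of them lower by more than 1.5-fold (Stra8, 87.3 and 56.8 RPKM), and a summed level of 768 RPKM in control and 599 in Bcas2F/-;Vasa-Cre testes. Whole testes mix germ and somatic cells, and fewer cells of a type and less RNA per cell cannot be told apart in these libraries. By real-time RT-PCR of P9 testes, the study reported similar mRNA levels between genotypes for Stra8, Ddx4 (Mvh), Dazl, Kit, Sohlh1 and Sohlh2. The same RT-PCR gave significantly lower levels in Bcas2F/-;Vasa-Cre testes for the meiotic genes Dmc1, Scp1, Scp3 and Smc1b. At later ages the study reported no significant difference in the numbers of PLZF-positive spermatogonia or of MVH-positive cells at the basement membrane. It also reported that MVH protein was comparable at first and then fell. MVH-positive cells were apparently missing from the tubule centre, and hardly any germ cells had reached meiotic prophase. The median of the germ cell markers was lower than that of the 10 genes, but their lowest ratio, −0.61 for Stra8, was close to those of Dusp1 and Ier3.

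Of the marker lists, that of neutrophils differed most between the libraries. All 4 neutrophil markers above the minimum, of 7 listed, were lower by more than 1.5-fold, with a median log2 ratio of −2.11, and all 7 summed to 26.6 RPKM in control and 3.34 in Bcas2F/-;Vasa-Cre testes. S100a8, S100a9 and Ngp reached the minimum through the control library alone, and over all 7 the median was −0.79. S100a8 measured 9.35 and 0.660 RPKM (at least 73 and 5 reads) and S100a9 9.83 and 0.401 (101 and 4). Ngp measured 2.76 and 0.255 (at least 67 and 6) and Camp 3.84 and 1.81 (at least 46 and 21), while Mpo, Elane and Ltf were under 1 RPKM in both. Of the 6 erythroid markers above the minimum, of 7 listed, 2 were lower by more than 1.5-fold, Slc4a1 (15.7 and 0.607 RPKM) and Hbb-bt (42.4 and 20.3), with a median of −0.32 and a summed level of 981 and 944. Slc4a1, too, reached the minimum through the control library alone (373 and 14 reads). Dusp1, Zfp36, Ier3, Fos and Fosb were lower in the library that also had less of the neutrophil markers. The part of these cells in the result was not tested.

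Somatic markers of the testis differed less. The macrophage markers had a median of −0.16 (6 of 6 above the minimum, summed level 50.9 and 45.9 RPKM), the peritubular myoid markers −0.05 (5 of 5, 523 and 489) and the endothelial markers −0.06 (5 of 5, 46.7 and 46.1), and none of these genes passed 1.5-fold. The Sertoli cell markers had a median of 0.12 (5 of 6, 3031 and 3308), with none past 1.5-fold and Rhox5 listed at 0 in both libraries. The Leydig cell markers had a median of 0.20 (6 of 6, 387 and 431), with 4 above 0 and 2 below, Cyp11a1 (−0.07) and Hsd3b1 (−0.17). Of the 6, Cyp17a1 alone was higher by more than 1.5-fold (94.8 and 152 RPKM, 0.68). Star measured 20.1 and 29.1 RPKM (0.51), beside the 18.1 and 18.8 RPKM of Nr4a1. Clu, Hsd3b1, Acta2, Cdh5, C1qa, Hbb-bs and Uchl1, the most abundant of their lists, had ratios of 0.12, −0.17, −0.13, −0.06, −0.32, 0.11 and −0.32. The part of any of these cell types in the ratios of the 10 genes was not tested.

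**Figure D5:**
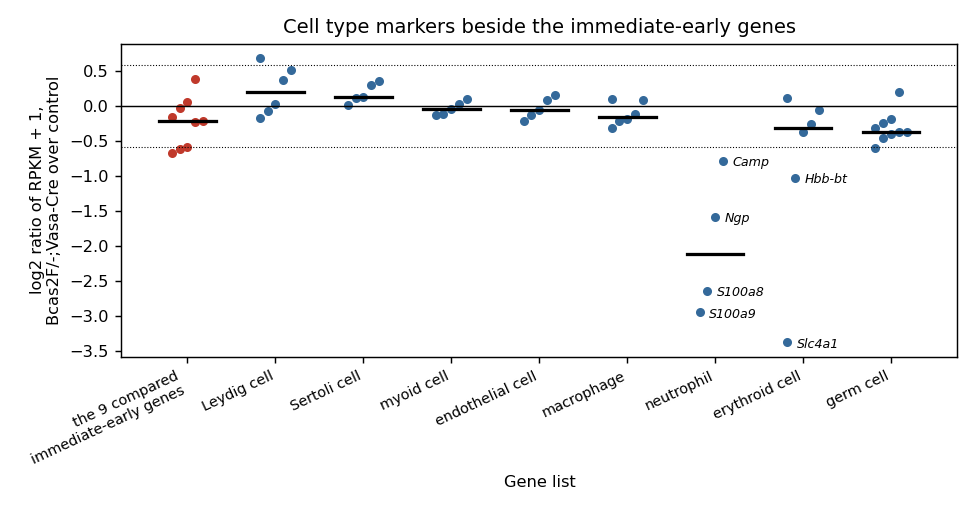
Log2 ratio of RPKM + 1, Bcas2F/-;Vasa-Cre over control, for the 9 immediate-early genes (red) and for markers of 8 cell types (blue), each point a gene above the minimum and each bar a median. The neutrophil markers, with a median of −2.11, and Slc4a1 and Hbb-bt of the erythroid markers lie below all of the red points, and the germ cell markers have a median of −0.37.

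The 5 protein-coding genes whose log2 ratio was nearest to the median of the 10 genes, at a mean RPKM of at least 5, were Mgme1, Fthl17c, Fxyd5, Ndufa7 and Sdf2l1, each with a ratio of −0.22. Mgme1, a mitochondrial exonuclease gene, measured 10.5 and 8.87 RPKM. This likeness rests on 2 libraries only.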

How the data were processed

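RNA from 1 control and 1 Bcas2F/-;Vasa-Cre sample of P9 testes was sequenced in pairs after NEBNext Ultra library preparation. The authors aligned reads with TopHat2 2.0.9 to mm10, per the submitters' processing notes, used HTSeq to count them on genes, and deposited the result as RPKM. The annotation release is not given in the sources used here. Of 39695 entries, 517 lacked an Ensembl identifier and 37692 (95.0%) matched GENCODE M21.

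The 10 genes, the other lists and the rule for named genes (list genes past 1.5-fold, the most abundant gene of each list, family relatives, and the 5 genes nearest to the median) were chosen with earlier results of these data known. A gene that this rule would name is not reported here. Log2 ratios of RPKM + 1 were taken, with a minimum mean RPKM of 1. With 1 library per group no test was possible.

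RPKM ratios of 21028 of the 22040 genes above 0 in both libraries (95.4%) equalled a ratio of whole reads of up to 3000, within 3e-08, after a library factor of 1.03. This gave depths of 19918750 (control) and 19331687 counted reads or read pairs. Reads were taken at the annotated mean transcript length where that fitted, otherwise as the fewest reads possible at a whole-number length within 2-fold of it, which gives the widest interval ("at least"), and otherwise by rounding. Of the 5385 genes with a single annotated transcript, 50.7% gave the annotated length. Intervals are 95% Clopper-Pearson for ratios and exact Poisson for levels. The procedure was tested on simulated data in which every gene had its annotated mean transcript length. That simulation therefore did not test the fewest-reads step, on which Egr3, Nr4a1, Dusp1 and Zfp36 rest. Motifs were searched as exact strings in RefSeq promoter windows and in GENCODE transcripts. The work used scipy 1.17.1 and numpy 2.4.6 in Python 3.11.15, with pandas 2.3.3, and figures were drawn in matplotlib 3.10.9. Alternatives were pseudocounts of 0.1 and 0.01, 2 rescalings, no minimum or a minimum of 5, and a requirement on the interval.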

Additional observations from a re-analysis of the deposited data

How the results depend on the processing

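Leaving out a library was not possible with 1 per group, and no paired analysis was possible because each group had a single library and no result came from a test. Zfp36, Dusp1 and Ier3 were lower by more than 1.5-fold, and none of the other genes of the 10, in every alternative that was run, among those that reached the minimum, and no ratio of the 10 changed sign. Egr3, under the minimum, had −0.62 and −0.80 with pseudocounts of 0.1 and 0.01. Ier3 was closest to the threshold, with log2 ratios of −0.59 to −0.68. The median of the 10 genes ranged from −0.25 (pseudocount 0.01) to −0.20 (rescaled to a sum of 1000000), and the rescaling put the median of all genes at 0.04. Counts over all genes moved by over 1.5 times in 19 of 28 comparisons with an alternative. With a pseudocount of 0.1, 457 genes were lower and 454 higher by 1.5-fold, and 126 and 158 by 2-fold; with 0.01 these were 485, 491, 132 and 192. With no minimum, 468 were lower and 511 higher by 1.5-fold and 122 higher by 2-fold. With a minimum of 5, 104 were lower and 46 higher by 1.5-fold, and 16 and 9 by 2-fold. With the interval required, 96 were higher by 1.5-fold, and 33 lower and 22 higher by 2-fold. Rescaling gave 101 genes higher by 2-fold. A list median was counted as moved only if it shifted by at least 0.24, the median half-width of the tested members' intervals. By these rules, 6 of 280 other list values moved, all in the neutrophil markers, whose median ran from −3.60 (pseudocount 0.01) to −0.79 (no minimum). Medians near 0 could change sign without being counted. The endothelial median went from −0.06 to 0.01 with a minimum of 5, and the partner median from 0.01 to −0.04 with no minimum. Depth limited Egr3 and Nr4a2 most, whose intervals held both equal levels and a difference past 1.5-fold, and it left the size of the differences of Ier3, Dusp1 and Zfp36 on either side of 1.5-fold.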
